A study of Mus musculus with 12 samples.

Results

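The RNA profile of the control pallium was described from the 4 libraries titled E13.5 control 1 to 4, out of 12 libraries in the series. The pallium is the dorsal part of the telencephalon, from which the cerebral cortex forms. The libraries were made from dorsal telencephalon dissected from C57/Bl6 mice at stage E13.5. Stranded libraries of total RNA were prepared with the TruSeq chemistry and sequenced on a NextSeq500. The control embryos had the genotype Rnu11wt/flx::Trp53wt/wt::Emx1-Cre+. They therefore carried Emx1-Cre, a recombinase made in the progenitor cells of the pallium and their descendants, and 1 floxed copy of Rnu11, so they are heterozygous for the floxed allele and not wild type. The other 8 libraries, used here only to show which genes of the profile moved, were 4 with the genotype Rnu11flx/flx::Trp53wt/wt::Emx1-Cre+ (cKO) and 4 with Rnu11flx/flx::Trp53flx/flx::Emx1-Cre+ (dKO). Rnu11 encodes the U11 small nuclear RNA of the minor spliceosome, and Trp53 encodes p53. The labels number the libraries and give neither litters nor the number of embryos behind each. A library is called an embryo below, and the spread between libraries may be partly technical.

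At this stage the pallial wall holds dividing radial glia beside the ventricle, intermediate progenitors that arise from them, and the first excitatory neurons, which migrate outward and begin to grow axons. Cajal-Retzius neurons lie at the surface, and the cortical hem and choroid plexus border the pallium medially. Vessels, blood, microglia and the meninges come with the dissection, and a bulk library sums the RNA of all of them. A lower value can therefore come from fewer cells of a type or from less RNA per cell, which cannot be told apart here.

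The deposited values are TPM, in which reads are divided by gene length and scaled to a fixed library sum. Nuclear protein-coding genes took only 15.6% ± 0.764 of the control TPM sum, between 14.6% and 16.3%, and the short structural RNAs Rn7s2 and Rn7sk alone held 31.7% ± 1.85 and 16.2% ± 1.85. Levels below are therefore given as parts per 1000000 (ppm) of the nuclear protein-coding sum of each library, a length-scaled measure in which 1 TPM was worth 6.43 ppm on average. Values after ± are standard deviations over the 4 embryos. Sequencing depth cannot be read from TPM and is unknown here, and a gene without signal is called listed at 0. As a check of the labels, Rnu11 stood at 674, 521, 724 and 643 TPM in control embryos 1 to 4 and at 144 ± 20.4 TPM in cKO and 164 ± 26.3 TPM in dKO. For Trp53 the dKO level was 1.22 ± 0.252 TPM, against 3.82 ± 1.73 TPM in the controls and 4.24 ± 0.404 TPM in cKO. Embryos 1 and 2 had Y-linked transcripts and almost no Xist, the RNA of the inactive X chromosome, while embryos 3 and 4 had the reverse: Ddx3y was at 74.5, 96.7, 0.126 and 0 ppm and Xist at 0.249, 0.0649, 119.7 and 193 ppm in embryos 1 to 4.

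Of 21939 nuclear protein-coding genes, 8591 (39.2%) had a mean of at least 10 ppm, 1546 lay between 100 and 1000 ppm, 141 exceeded 1000 ppm and 3696 were listed at 0 in all 4 embryos. The sum was concentrated in few genes: the highest 10 held 9.29% ± 0.208, the highest 100 held 31.7% ± 0.375 and the highest 1000 held 64.8% ± 0.649. The highest genes were short, with a median transcript length of 862 bases for the first 100 against 3142 bases for all genes at or above 10 ppm. Eef1a1, which delivers aminoacyl-tRNA to the ribosome, led the ranking at 16050, 19416, 20002 and 18515 ppm in embryos 1 to 4 (chromosome 9, 78478449 to 78489151 in mm10, on the minus strand). Of the first 25 genes, 9 encode ribosomal proteins and 9 encode replication-dependent histones, the histones made in S phase whose messages lack a poly(A) tail and are kept in libraries of total RNA. Hist1h4k stood second at 11717 ± 1581 ppm, but histone genes are near-identical copies, so how reads were split among them is uncertain for each single gene. The ribosomal protein genes ran from Rpl13a at 8734 ± 908 ppm and Rpl41 at 8579 ± 597 ppm down to Rps28 at 3514 ± 304 ppm. Rps27rt (2518, 6384, 2709.8 and 2691 ppm), a processed copy of a ribosomal protein gene, held rank 23 through embryo 2, and the predicted gene Gm11808 (3524 ± 872 ppm) followed it.

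Other genes of the first 25 included a globin and genes of the cytoskeleton. Hbb-y, the embryonic beta-like globin of red cells that circulate through the brain, held rank 3 at 11698, 8276, 9722 and 8967 ppm. Tmsb4x, a thymosin that binds actin monomers, held rank 9 at 5089, 7235, 6963 and 6144 ppm, and Tuba1a, the alpha tubulin of newborn neurons, held rank 10 at 5683, 5842, 5921 and 6195 ppm. Actb, the cytoplasmic beta actin, held rank 17 at 4738, 3585, 4937 and 5294 ppm. Embryo 2 was the lowest of the 4 in Hbb-y and Actb and the highest in Tmsb4x, and Tuba1a varied least of these genes (CV, the SD divided by the mean, 3.62%). The order within the first 25 was loose, since only 5 of the 24 neighbouring pairs kept their order in all 4 embryos and only 2 pairs had ranges that did not overlap.

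By class, the 86 ribosomal protein genes summed to 12.8% ± 0.83 of the protein-coding sum and the 68 replication-dependent histone genes to 12.3% ± 1.29. The histone share was highest in embryo 1 (13.8%) and lowest in embryo 2 (10.6%), and the ribosomal protein share ran the other way, lowest in embryo 1 (11.98%) and highest in embryo 2 (13.9%). Nuclear genes for respiratory chain subunits held 3.01% ± 0.165, translation elongation factors 2.11% ± 0.168 and heterogeneous nuclear ribonucleoproteins, which package and splice pre-mRNA, 1.30% ± 0.0553. Glycolytic enzymes held 0.520% ± 0.0413.

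Promoter sequence differed across the levels of the profile. RefSeq promoters (250 bases before to 50 bases after an annotated start, GRCm38.p6) were matched by symbol for 16511 of the genes. The observed count of CpG dinucleotides divided by the count expected from the C and G content had a median of 0.145 for the 2554 genes listed at 0, 0.649 for those between 1 and 10 ppm, 0.805 between 10 and 100 ppm and 0.893 for the 72 above 1000 ppm. Those 72 are only part of the 141 genes above 1000 ppm, the rest of which had no matched promoter. A TATA-box match, taken as TATAAA or TATAAG on the gene's own strand within the 60 bases before the start, was present in 5.40% of all these promoters. Its share was 15.2% among genes listed at 0, 1.37% between 10 and 100 ppm and 9.72% (7 promoters) above 1000 ppm. Among the cell-class lists, the match was found in 4 of 9 intermediate progenitor genes (Eomes, Neurog2, Gadd45g and Dll3) and in 5 of 7 erythroid genes, but in 0 of 20 proliferation genes and 0 of 10 patterning factors. These are descriptions of letters in a window, with no measure of binding.

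**Figure D1:**
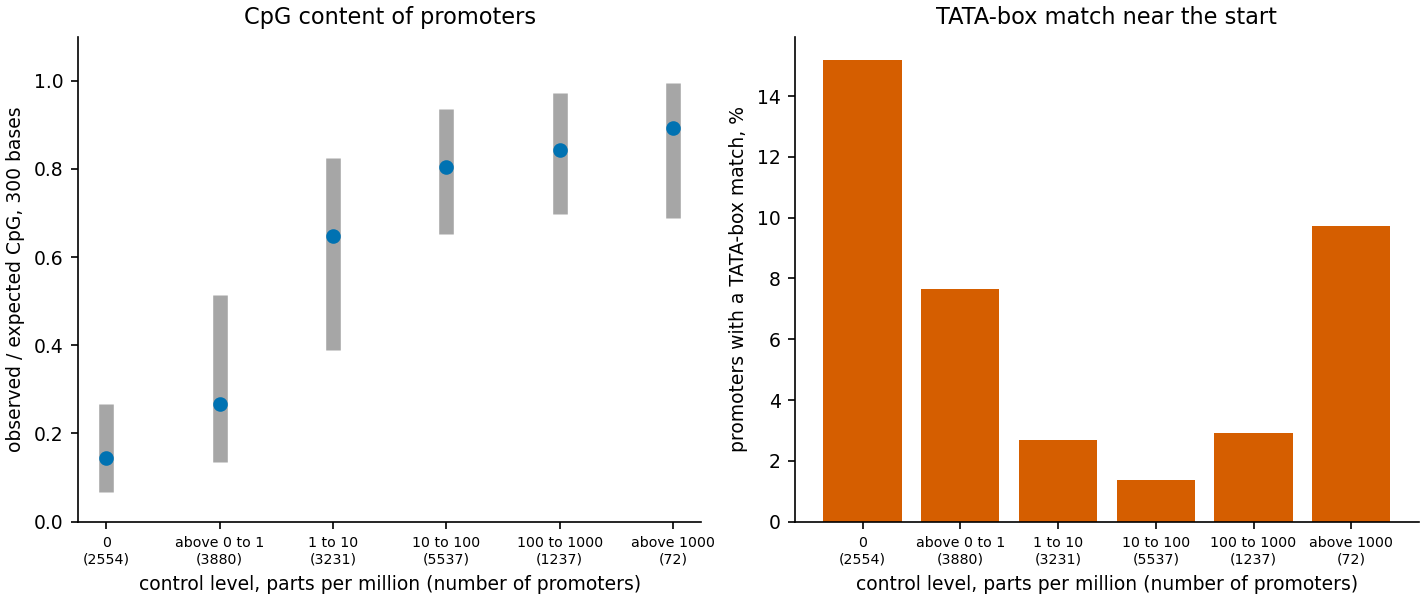
Promoter features by control level. The x axis gives bins of the mean level in ppm with the number of promoters. On the left, points are medians and bars the quartile range of the observed over expected CpG ratio in 300 bases, which rises from 0.145 at 0 to 0.893 above 1000 ppm; on the right, bars give the percentage with a TATA-box match, 15.2% at 0 and 1.37% between 10 and 100 ppm.

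The 120 bases before the start are shown for 7 genes that stand for patterning, division, the intermediate progenitor state and blood. Capitals mark CpG dinucleotides and the TATA-box match, and each run is written 5′ to 3′ on the gene's strand. Lhx2 (chr2:38339161-38339280, plus strand), a LIM homeobox factor of the early cortex, has no match and is dense in CpG, with 19 in these bases. The S-phase and mitotic topoisomerase Top2a (chr11:99024190-99024309, minus strand) also has no match. It holds 6 CpG here, as many as Dll3 and fewer than the 11 of Gadd45g. Over the 300 bases the observed over expected CpG ratio was 0.885 for Lhx2 and 0.940 for Top2a, and at most 0.723 for the genes with a match. The 4 intermediate progenitor genes are Neurog2 (chr3:127633016-127633135, plus), Eomes (chr9:118478069-118478188, plus), Gadd45g (chr13:51846555-51846674, plus) and Dll3 (chr7:28301786-28301905, minus), each with a match close to the start. Hbb-bs (chr7:103827929-103828048, minus), an adult beta globin, has a match and the fewest CpG of the 7. Lhx2 has 2 starts in the RefSeq table, of which 1 is shown, and the Dll3 and Hbb-bs starts lie 453 and 168 bases from those of the GENCODE annotation.
Lhx2: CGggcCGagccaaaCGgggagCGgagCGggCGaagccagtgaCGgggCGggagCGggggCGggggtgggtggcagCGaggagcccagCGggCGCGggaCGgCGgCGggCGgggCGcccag
Top2a: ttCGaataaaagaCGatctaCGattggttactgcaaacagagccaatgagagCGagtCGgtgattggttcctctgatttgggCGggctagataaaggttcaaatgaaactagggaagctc
Neurog2: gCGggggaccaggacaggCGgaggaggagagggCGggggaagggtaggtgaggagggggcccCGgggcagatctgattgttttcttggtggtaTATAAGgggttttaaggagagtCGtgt
Eomes: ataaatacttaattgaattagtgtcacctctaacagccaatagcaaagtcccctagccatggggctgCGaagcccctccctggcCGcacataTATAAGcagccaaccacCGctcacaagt
Gadd45g: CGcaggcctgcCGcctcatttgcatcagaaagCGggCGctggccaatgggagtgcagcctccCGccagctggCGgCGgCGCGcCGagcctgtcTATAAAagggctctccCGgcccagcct
Dll3: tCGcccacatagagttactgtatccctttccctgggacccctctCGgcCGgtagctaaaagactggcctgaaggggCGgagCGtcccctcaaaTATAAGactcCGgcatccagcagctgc
Hbb-bs: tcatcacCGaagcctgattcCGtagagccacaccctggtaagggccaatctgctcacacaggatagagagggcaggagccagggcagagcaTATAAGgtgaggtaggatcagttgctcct

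Transcription factors formed a small and uneven part of the profile. Among 690 genes taken as transcription factors by symbol pattern, 224 (32.5%) reached 10 ppm and 82 were listed at 0, and together they held 1.28% of the protein-coding sum. The highest was Neurod6, a basic helix-loop-helix factor of postmitotic excitatory neurons, at 450.2, 729, 676 and 579.9 ppm in embryos 1 to 4 (mean 609 ± 122.6, rank 240 of all protein-coding genes; chromosome 6, 55677822 to 55681263). Nfib, a nuclear factor I protein that promotes neuronal and glial maturation, followed at 459.5, 612, 460.3 and 563 ppm. Sox11, an SRY-related factor of immature neurons, came next at 411, 338, 395 and 429.8 ppm. Embryo 1 was the lowest of the 4 in Neurod6 and Nfib, and embryo 2 was the highest in both.

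The next group combined broadly made and region-restricted factors. Tcf4 and Tcf12, E proteins that pair with proneural factors, stood at 275 ± 37.9 and 230.2 ± 6.48 ppm, and a further E protein gene, Tcf3, at 148 ± 27.5 ppm. Sox4, which acts with Sox11 in neuron differentiation, stood at 259.5 ± 23.7 ppm, and the ratio of Sox11 to Sox4 was 1.44 to 1.58 over the embryos, narrower than the spread of either gene. The homeobox factor Meis2 (251 ± 17.3 ppm), the zinc finger factor Sp3 (246 ± 26.8 ppm) and Tcf20 (216 ± 8.71 ppm) completed the factors above 200 ppm. Lhx2, whose promoter is shown above, had 219.6, 147, 163 and 203 ppm, and Nr2f1, an orphan nuclear receptor that patterns cortical areas, had 161, 137, 161 and 199.7 ppm. Lhx2 exceeded Nr2f1 in all 4 embryos, yet by 1.01-fold in embryo 3 and 1.36-fold in embryo 1, so the pair is hardly separated.

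Between 100 and 165 ppm lay Zeb2 (161 ± 12.8 ppm), a repressor active in cortical neurons, and the Hippo pathway effector Tead2 (158 ± 23.9 ppm). The Hes-related factor Hes6 (155 ± 14.5 ppm) and Zbtb18 (149.98 ± 9.91 ppm), a zinc finger repressor needed for cortical neuron migration, were in the same range. They were joined by Elf2 (146 ± 8.31 ppm), Nfyb (138 ± 10.6 ppm), Usf2 (132 ± 8.42 ppm), Cux1 (130.1 ± 14.7 ppm) and Mycn (129.8 ± 13.98 ppm), the last a driver of progenitor growth. Sox5 (126 ± 16.4 ppm), a determinant of deep-layer neurons, Sox6 (112 ± 11.8 ppm) and Nfix (109.7 ± 17.1 ppm) closed the first 25. As among all genes, neighbours in this order were poorly separated: 5 of 24 neighbouring pairs kept their order in every embryo, and 2 had ranges that did not overlap.

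**Figure D2:**
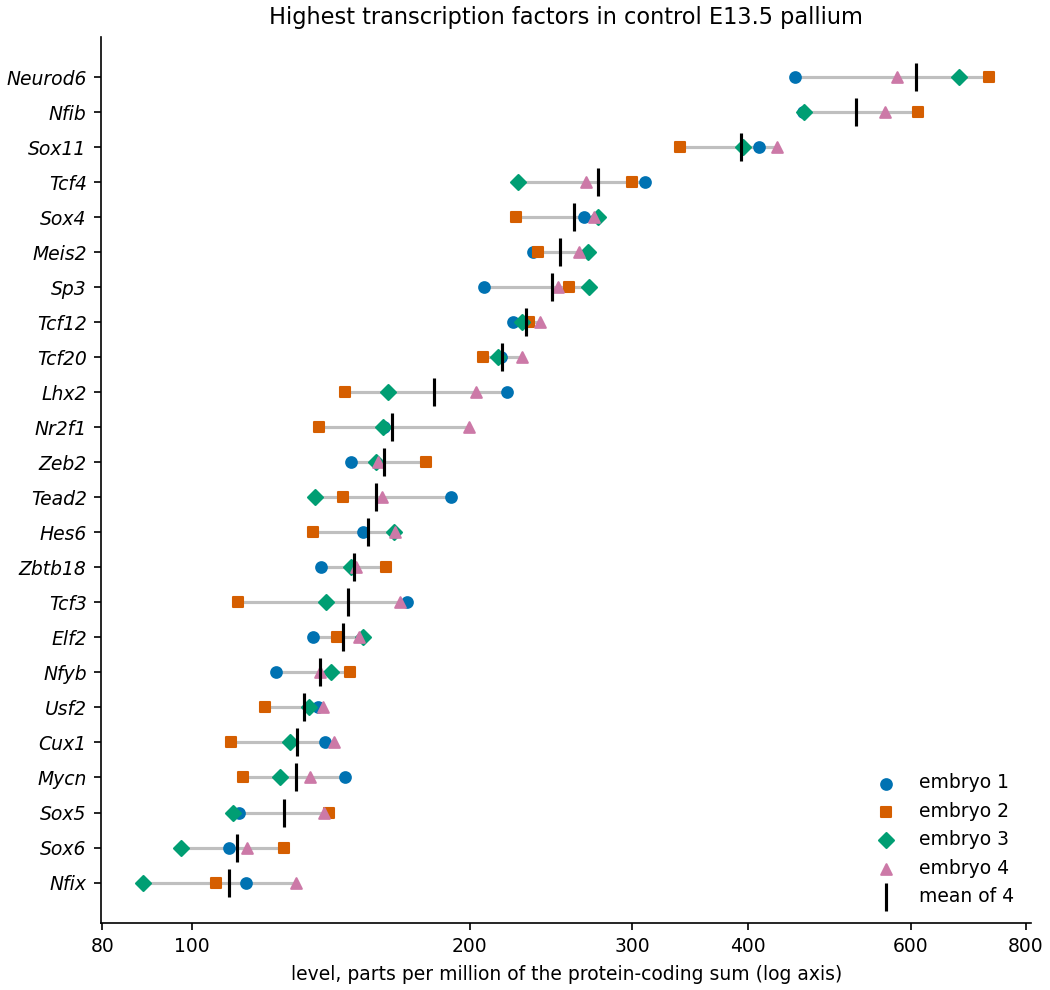
Levels of the transcription factors named in the text as the highest in control embryos. The x axis is the level in ppm of the protein-coding sum on a log scale; symbols are the 4 embryos, grey lines their range and black ticks the mean. Neurod6, Nfib and Sox11 stand above the rest, and most neighbouring ranges overlap.

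Families differed in how much of them was in use. In the SOX family 10 of 19 genes reached 10 ppm, as did 25 of 49 bZIP genes, 8 of 10 E2F and DP genes, 5 of 7 NEUROD and NEUROG genes and 3 of 4 NFI genes. Only 23 of the 134 genes grouped as other homeobox did so, and 51 of them (38.1%) were listed at 0, which made up most of the 82 factors listed at 0. Low counts were also seen among LIM homeobox genes (2 of 12), T-box genes (3 of 16) and PRD and PAX genes (5 of 30), in which the highest were Lhx2, Eomes and Pax6. The forkhead family had 12 of 43 genes at 10 ppm and 8 at 0.

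Of 12 listed factors that pattern the pallium, 10 had a mean of at least 10 ppm and none was under 1 ppm, with a median of 30.1 ppm. Pax6, a paired-homeobox factor of radial glia that sets up the dorsal identity, stood at 109, 92.5, 95.2 and 79.8 ppm. Emx1, whose regulatory region drives the Cre of these embryos, stood at 68.3, 43.97, 55.7 and 57.6 ppm, and its paralogue Emx2, which is graded toward the caudal and medial cortex, at 58.97, 28.3, 35.5 and 29.6 ppm. Emx1 exceeded Emx2 in every embryo, by 1.16-fold to 1.94-fold. Nr2f2 (29.8 ± 8.26 ppm), an orphan nuclear receptor of caudal areas, and Gli3 (21.96 ± 5.02 ppm) were lower, and Sp8 (6.46 ± 1.31 ppm) and Dmrt3 (8.61 ± 2.98 ppm) were under 10 ppm. In the order of the 12 levels, 6 of 11 neighbouring pairs kept their order in all 4 embryos and 2 had ranges that did not overlap. The summed level of the list was 786, 553, 610.2 and 719.9 ppm in embryos 1 to 4, highest in embryos 1 and 4. In the same embryos GC-rich transcripts ran high (values below), and the list's median transcript GC was 56.6% against 49.4% for all genes at or above 10 ppm; its part in the difference was not tested.

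Radial glia are the ventricular stem cells whose fibres guide migrating neurons, and 17 of their 19 listed genes reached 10 ppm. Fabp7, a brain lipid-binding protein of radial glia, stood at 582, 862, 741 and 635 ppm, and Vim, the intermediate filament of their fibres, at 628, 468, 505 and 595 ppm. Id4, an inhibitor of basic helix-loop-helix factors, stood at 191, 148, 163 and 171 ppm, and Prom1, a protein of apical membrane protrusions, at 133, 139, 146 and 135 ppm. Embryo 2 was the highest in Fabp7 and the lowest in Vim and Id4, so single markers gave different orders of the embryos, while the list's sum barely moved (2311, 2229, 2206 and 2221 ppm, CV 2.09%). Further members were Aldoc (119 ± 11.7 ppm), Nes (112 ± 12.9 ppm), the glutamate transporter gene Slc1a3 (69.8 ± 4.46 ppm) and the stem cell factor Sox2 (69.6 ± 8.28 ppm). Tnc, an extracellular matrix gene of outer progenitors, stood at 3.51 ± 0.509 ppm, the lowest of the list.

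Intermediate progenitors divide away from the ventricle and give rise to neurons. Of 12 listed genes, 11 reached 10 ppm, led by Hes6 at 153, 135, 166 and 166 ppm. Neurog2, the proneural factor that commits pallial progenitors to an excitatory fate, stood at 125, 87.97, 93.5 and 90.8 ppm, with embryo 1 above the other 3. Its paralogue Neurog1 stood at 12.4 ± 3.17 ppm, and the ratio of Neurog2 to Neurog1 was 6.201 to 11.1. Eomes, the T-box factor that marks this cell type, stood at 57.9, 48.4, 56.4 and 55.4 ppm. Pax6 exceeded Eomes in every embryo (ratio 1.44 to 1.91), and Eomes exceeded Tbr1, the T-box factor of their neuronal progeny, in every embryo (ratio 2.27 to 5.12). The antiproliferative gene Btg2 (88.4 ± 5.81 ppm), the stress-response gene Gadd45g (31.9 ± 5.08 ppm) and the somatostatin receptor gene Sstr2 (23.5 ± 3.3997 ppm) were intermediate, and Insm1 (8.28 ± 1.24 ppm) was the lowest.

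The division programme had the highest median of the neural cell-class lists. All 26 proliferation genes exceeded 10 ppm and 19 exceeded 100 ppm, with a median of 154 ppm. Top2a stood at 941, 1009.7, 1129 and 996 ppm and Pcna, the replication clamp, at 896, 1046, 1064 and 998 ppm. Cdk1, the mitotic kinase, had 668 ± 52.5 ppm, and Mki67, the classical marker of cycling cells, had 285 ± 11.2 ppm. Embryo 1 was the lowest in Top2a, Pcna and Cdk1, but the list's sum varied little (6683, 6497, 7005 and 6876 ppm). Among D-type cyclins Ccnd2 (681, 486, 501 and 623 ppm) exceeded Ccnd1 (73.9 ± 10.6 ppm) by 6.29-fold to 8.44-fold within an embryo. Of the replication helicase subunits, Mcm7 was the highest (413 ± 22.3 ppm) and Mcm5 the lowest (89.7 ± 12.8 ppm), and Plk1 (23.99 ± 8.12 ppm) was the lowest of the whole list.

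Among the 30 factors of projection neurons, the excitatory neurons with long axons, 25 reached 10 ppm. Fezf2, which specifies subcerebral neurons of the deep layers, had 117, 102, 109 and 111 ppm and Bcl11b had 48.3, 35.6, 35.9 and 45.3 ppm. Neurod2 (86.6 ± 6.62 ppm) and Neurod1 (45.4 ± 5.43 ppm) were lower than Neurod6, by 5.18-fold to 9.26-fold for Neurod2. Tbr1 stood at 18.3 ± 5.995 ppm, Cux2 at 12.2 ± 1.52 ppm, Rorb, of layer IV, at 2.61 ± 0.745 ppm, and Pou3f1 at 0.786 ± 0.304 ppm, the lowest.

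Of 20 general neuronal genes, 17 reached 10 ppm. Tubb3, the neuronal beta tubulin, stood at 401, 374, 376 and 407 ppm, Map2 at 254 ± 21.8 ppm, the RNA-binding gene Elavl2 at 232 ± 29.2 ppm and Gap43, of growth cones, at 153 ± 21.7 ppm. The vesicle fusion gene Snap25 (13.6 ± 2.37 ppm), the calcium sensor gene Syt1 (12.3 ± 2.91 ppm), Rbfox3, which encodes NeuN (14.6 ± 3.41 ppm), and the neurofilament gene Nefl (3.66 ± 0.197 ppm) were lower. Cajal-Retzius neurons, which secrete Reelin at the surface, were seen mainly through Reln itself at 66.9, 129.8, 83.9 and 97.4 ppm, highest in embryo 2 and lowest in embryo 1. The next genes of that list were Nhlh2 (18.8 ± 1.06 ppm), Calb2 (12.6 ± 1.7004 ppm) and Trp73 (6.96 ± 2.396 ppm), and 7 of the 10 listed genes lay under 10 ppm.

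Markers of neighbouring brain territories were low or at 0. Of 16 genes of the ventral telencephalon and of interneurons, 2 reached 10 ppm and 10 lay under 1 ppm. Sst, a peptide of a class of interneurons, had 16.001, 20.8, 16.3 and 19.1 ppm. Dlx1 had 5.49, 9.62, 6.54 and 10.4 ppm, Lhx6 2.26 ± 0.588 ppm, and Gsx1 and Lhx8 were listed at 0 in all 4 embryos. Of 15 genes of the diencephalon, midbrain, hindbrain and ventral midline, none reached 10 ppm and 13 lay under 1 ppm. Tcf7l2 was the highest at 2.62 ± 0.773 ppm, followed by Barhl2 at 1.098 ± 0.197 ppm, whereas En2, Hoxa2, Hoxb1, Hoxb4, Hoxc6 and Nkx2-2 were listed at 0 in all 4 embryos.

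Genes of the medial border varied between embryos. Ttr, a thyroid hormone carrier secreted by the choroid plexus, stood at 421, 620.2, 219 and 249.8 ppm in embryos 1 to 4, 2.83-fold apart between the highest and the lowest. Other choroid plexus and hem genes were far lower, among them the R-spondin gene Rspo2 (36.9, 30.97, 23.9 and 35.4 ppm), Otx2 (38.8, 31.3, 21.1 and 29.5 ppm), the folate receptor gene Folr1 (23.4 ± 6.28 ppm) and Wnt3a (8.75 ± 2.33 ppm). Embryo 3 was the lowest in each of Ttr, Rspo2, Otx2 and Folr1. The list's sum was 674, 824, 357 and 446 ppm.

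Cells that do not derive from the neural wall also contributed. Erythroid genes summed to 19052, 15497, 16360 and 13375 ppm, nearly all globin: besides Hbb-y there were Hbb-bs at 2989, 4186, 3694 and 2045 ppm and the alpha globins Hba-a1 and Hba-a2 at 1195 ± 374 and 1214 ± 349 ppm, which are near-identical genes and uncertain individually. The embryonic Hbb-y exceeded the adult Hbb-bs in every embryo by 1.98-fold to 4.39-fold, while the heme synthesis gene Alas2 stood at 18.8 ± 5.94 ppm. Microglia, the resident macrophages, were a minor source: 3 of 13 genes reached 10 ppm, led by the complement genes C1qb (21.3, 22.1, 16.5 and 20.5 ppm), C1qc (17.7 ± 2.102 ppm) and C1qa (16.97 ± 0.959 ppm), and P2ry12 had 9.83 ± 1.32 ppm. Vessel and pericyte genes had a median of 7.36 ppm, with Egfl7 (30.7 ± 2.14 ppm), the glucose transporter gene Slc2a1 (23.4 ± 5.68 ppm), Pecam1 (20.5 ± 2.19 ppm) and Kdr (19.6 ± 1.64 ppm) as the highest.

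Collagen genes of the meninges differed between embryos: Col3a1 stood at 109.98, 71.7, 63.4 and 71.7 ppm, while Dcn (43.3 ± 5.08 ppm), Lum (34.1 ± 3.76 ppm) and Prrx1 (22.8 ± 0.778 ppm) were more even. Embryo 1 had the highest sum of that list (297, 209, 183 and 213 ppm). No gene of 11 for astrocytes and oligodendrocytes, cells that form later, reached 10 ppm; Pdgfra was the highest at 6.83 ± 1.601 ppm, Slc1a2 stood at 3.64 ± 0.5197 ppm and Mbp at 2.94 ± 0.393 ppm. All 8 genes of surface ectoderm and muscle lay under 1 ppm, with Krt15 at 0.222 ppm (0.113 ppm without embryo 3) and Myod1 listed at 0.

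**Figure D3:**
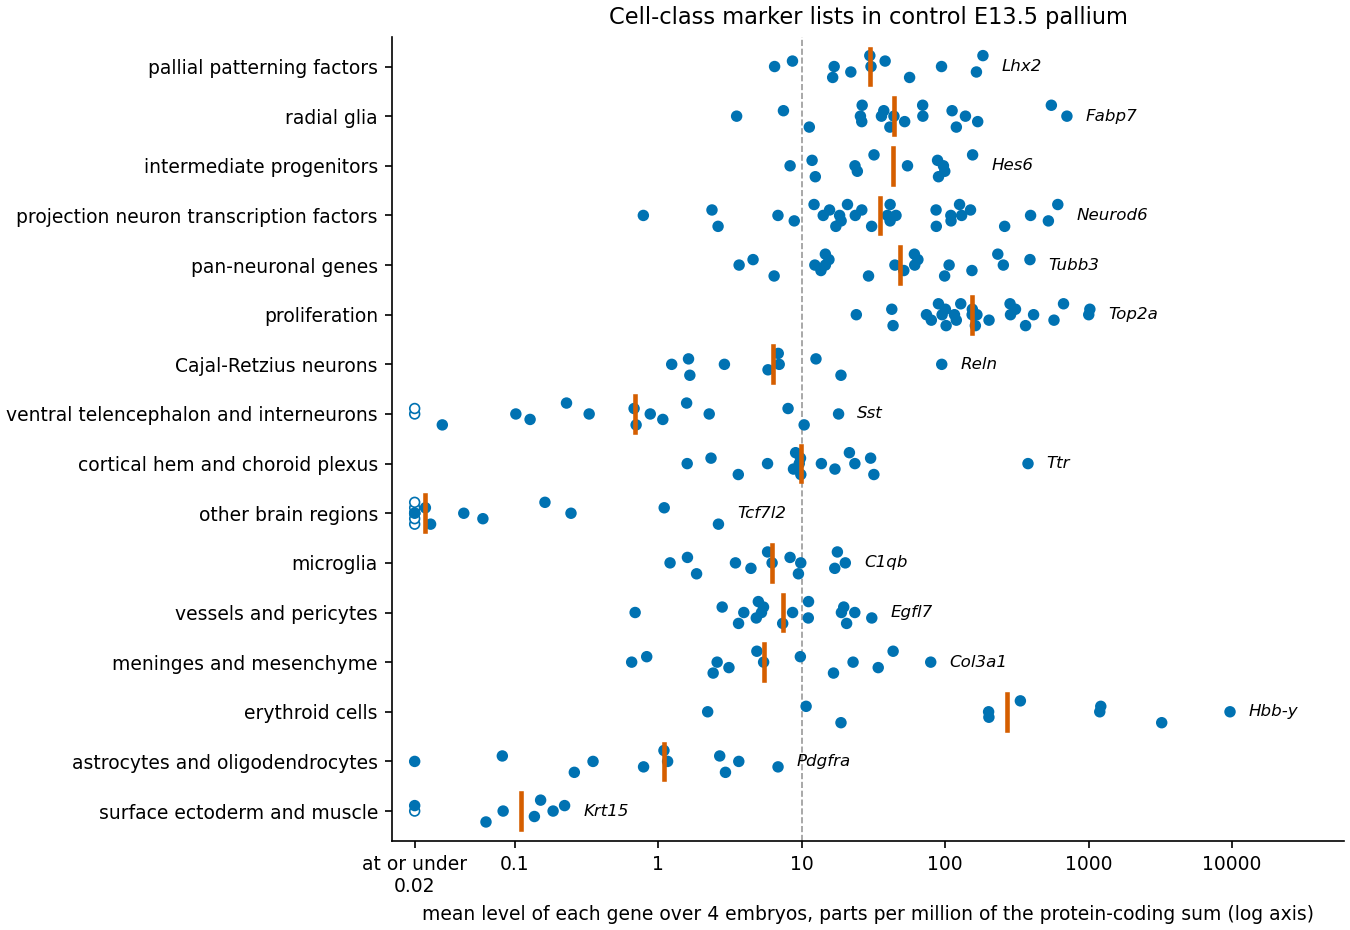
Mean control level of every gene in the cell-class lists. The x axis is the mean over 4 embryos in ppm on a log scale; each point is a gene, open points are genes listed at 0, orange bars are list medians, the dashed line marks 10 ppm and the highest gene is named. Proliferation has the highest median of the neural lists, 154 ppm, and the lists for other brain regions and for surface ectoderm and muscle lie at the lower end.

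In the Notch, Wnt, FGF and BMP and TGF-beta pathways, the median of the ligand list lay under that of the receptor list on the mean levels of their genes. The ligand gene Dll1 was an exception, with a mean above that of every listed Notch receptor or modifier gene. Notch signalling, in which a neighbour's ligand keeps a progenitor undifferentiated, had Dll1 as its main ligand at 111, 76.7, 89.5 and 111 ppm. Dll3 (11.8 ± 1.38 ppm) and Jag1 (11.7 ± 1.15 ppm) were lower, and Dll1 exceeded Dll3 by 6.69-fold to 9.66-fold. Of receptors, Notch1 had 46.7, 32.4, 32.7 and 47.3 ppm and exceeded Notch2 (19.8 ± 4.72 ppm) in every embryo, by 1.72-fold to 2.43-fold. The glycosyltransferase gene Mfng, which tunes the receptors, stood at 89.7 ± 8.95 ppm, the DNA-binding partner Rbpj at 40.5 ± 4.78 ppm and the antagonist Numb at 31.3 ± 2.05 ppm. Among targets, Hey1 (93.8, 87.9, 112 and 114 ppm) exceeded Hes5 (72.1, 43.1, 42.8 and 50.4 ppm) in every embryo, whereas Hes5 exceeded Hes1 (47.5, 35.9, 42.97 and 49.2 ppm) in 3 of 4 embryos.

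Wnt ligands, which pattern the medial cortex and sustain progenitors, were led by Wnt7b at 83.8, 65.9, 78.7 and 98.99 ppm, 3.61-fold to 5.24-fold above Wnt7a (19.8 ± 1.41 ppm). The hem ligands Wnt2b (9.79 ± 2.66 ppm) and Wnt8b (9.05 ± 3.03 ppm) stayed under 10 ppm. The receptor gene Fzd3, which also steers axon tracts, stood at 107 ± 11.5 ppm, the co-receptor gene Lrp6 at 61.1 ± 4.01 ppm, and Fzd1 and Ryk at 52.8 ± 8.87 and 48.3 ± 2.73 ppm. Ctnnb1, which encodes beta-catenin, the pathway's effector and a part of cell junctions, stood at 624, 590.3, 611 and 609 ppm (CV 2.31%), while its DNA-binding partners Tcf7l1 (8.31 ± 3.78 ppm) and Lef1 (8.25 ± 2.405 ppm) stayed under 10 ppm. Sfrp1, a secreted Wnt antagonist of the pallium, was 74.1, 53.2, 54.1 and 53.6 ppm, and Axin2, a feedback target, was 34.2, 18.2, 15.2 and 20.8 ppm, with embryo 1 the highest in both.

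Among Hedgehog genes, of which 5 of 12 reached 10 ppm, co-receptors and the transducer Smo stood far above the ligand gene Shh. Shh stood at 0.0237 ppm, and the target Gli1 at 1.19 ± 0.428 ppm. The co-receptor genes Gas1 (187, 121, 168 and 164 ppm), Cdon (83.4 ± 13.8 ppm) and Boc (48.4 ± 7.99 ppm) and the transducer Smo (41.8 ± 4.68 ppm) all exceeded 40 ppm. Gli3, the repressor of the pathway in the dorsal telencephalon, exceeded Gli1 by 14.96-fold to 22.97-fold.

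For fibroblast growth factors, which arise at the rostral pole, no ligand reached 10 ppm on average. Fgf17 stood at 12.8, 4.21, 3.09 and 1.39 ppm, Fgf18 at 3.37, 1.38, 1.44 and 1.601 ppm and Fgf8 at 2.34, 0, 0.267 and 0 ppm, and Fgf3 was listed at 0. Embryo 1 was the highest in all 3 of these ligands, and without it the Fgf17 mean was 2.89 ppm. Targets of the pathway were also highest in embryo 1 for Etv5 (18.4, 12.3, 13.2 and 12.3 ppm) and Spry2 (11.9, 8.36, 7.89 and 8.42 ppm) but not for Dusp6 (16.3, 16.8, 10.4 and 13.6 ppm). Receptors were higher: Fgfr2 stood at 122, 109, 131 and 139.8 ppm and Fgfr3 at 103, 79.5, 70.9 and 109 ppm, and each exceeded Fgfr1 (36.2, 20.6, 15.8 and 22.9 ppm) in every embryo, Fgfr2 by 3.37-fold to 8.30-fold.

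Bone morphogenetic protein and TGF-beta ligands were low as well, with Gdf11 (15.9 ± 1.01 ppm), Tgfb2 (14.1 ± 3.86 ppm) and Bmp7 (13.7 ± 4.04 ppm) highest and 3 of 10 at or above 10 ppm. Of 15 receptor and SMAD genes 12 reached 10 ppm, led by the type I receptor gene Bmpr1a (121, 136, 142 and 136 ppm), the shared mediator Smad4 (93.9 ± 2.92 ppm) and Smad1 (56.6 ± 2.78 ppm). The median CV was 7.07% over those 12 genes, against 10.4% over all genes at or above 10 ppm. Id2 (153, 181, 184 and 163 ppm) stood at a level near that of Id4, and the antagonist Nog at 12.2 ± 1.72 ppm. In the retinoid pathway the retinoic acid binding protein gene Crabp2 (60.8 ± 6.0996 ppm) and the receptor gene Rxrb (22.2 ± 1.61 ppm) were the highest, and the synthetic enzyme gene Aldh1a2, which is made by the meninges, stood at 2.57 ± 0.512 ppm. The Reelin pathway had, besides Reln, the adaptors Crk (72.3 ± 3.65 ppm) and Dab1 (26.2 ± 2.94 ppm), the kinase gene Fyn (39.6 ± 2.98 ppm) and, of its receptors, more Lrp8 (24.6 ± 3.503 ppm) than Vldlr (6.92 ± 0.956 ppm).

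Axon guidance genes repeated the pattern of receptors above ligands. Eph receptor genes led: Epha4 stood at 217, 212, 243 and 234 ppm and Epha5 at 177, 249.7, 205 and 231 ppm, and the order of this pair differed between embryos, with Epha4 higher in 3 of 4. Epha3 (124 ± 21.1 ppm), the Slit receptor gene Robo2 (93.6 ± 7.98 ppm) and the Netrin receptor gene Dcc (76.7 ± 12.9 ppm) followed. Ligand genes were led by the ephrins Efnb2 (115, 84.9, 67.5 and 88.5 ppm) and Efnb1 (60.6 ± 10.7 ppm), then Slit2 (34.3 ± 6.76 ppm), and Ntn1 stood at 1.17 ± 0.274 ppm. The list of 21 receptors had a median of 23.4 ppm and that of 16 ligands a median of 14.5 ppm.

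Cytoskeletal genes of the tubulin and actin families were among the highest of the profile. Alpha tubulin came almost entirely from Tuba1a and Tuba1b (2488, 2007, 2310.3 and 2328 ppm), genes of similar sequence, with Tuba1a 2.28-fold to 2.91-fold higher, followed by Tuba1c (100.1 ± 6.62 ppm) and Tuba4a (26.3 ± 1.601 ppm). Of beta tubulins, Tubb5 (2981, 2563, 3139.5 and 3224 ppm) exceeded Tubb2b (1918, 2099.8, 2349 and 2224 ppm) in every embryo, by 1.22-fold to 1.55-fold, and Tubb4b (537 ± 52.3 ppm), Tubb3 and Tubb2a (262 ± 23.3 ppm) came next. Actb exceeded Actg1 (2037, 1501, 1879 and 2067 ppm) by 2.33-fold to 2.63-fold, and the muscle actins stayed under 5 ppm. The summed alpha tubulin level was 8309, 7973, 8355 and 8643 ppm and the summed actin level 6783, 5089.7, 6821 and 7365 ppm, so embryo 2 was the lowest in both, by a wider margin for actin.

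All 17 genes for actin-binding and growth cone proteins exceeded 100 ppm. After Tmsb4x came its paralogue Tmsb10 (2285, 2383, 2507 and 2506 ppm), the membrane-bound substrates Basp1 (629 ± 48.5 ppm) and Marcksl1 (532 ± 89.7 ppm) and the actin-severing Cfl1 (583 ± 43.9 ppm). Of 26 genes for microtubule-associated and motor proteins, 25 reached 10 ppm. Dynll1, a dynein light chain, had 1496, 1626, 1713 and 1683 ppm, Stmn1, a destabiliser of microtubules in dividing and newborn cells, 948, 943, 1046 and 848 ppm, Dpysl3 473 ± 24.4 ppm and Map1b 364 ± 50.1 ppm. The lissencephaly gene Pafah1b1 (326 ± 26.5 ppm) exceeded Dcx (106 ± 15.2 ppm), and tau, encoded by Mapt, stood at 14.6 ± 3.14 ppm. Stmn1 exceeded the neuronal Stmn2 (64.5 ± 11.6 ppm) by 11.8-fold to 18.8-fold. Of intermediate filament and lamin genes, Vim was followed by Lmnb1 (139 ± 19.7 ppm), Nes and Lmnb2 (53.6 ± 6.81 ppm), while Lmna, a lamin of mature cells, stood at 6.804 ± 1.349 ppm.

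**Figure D4:**
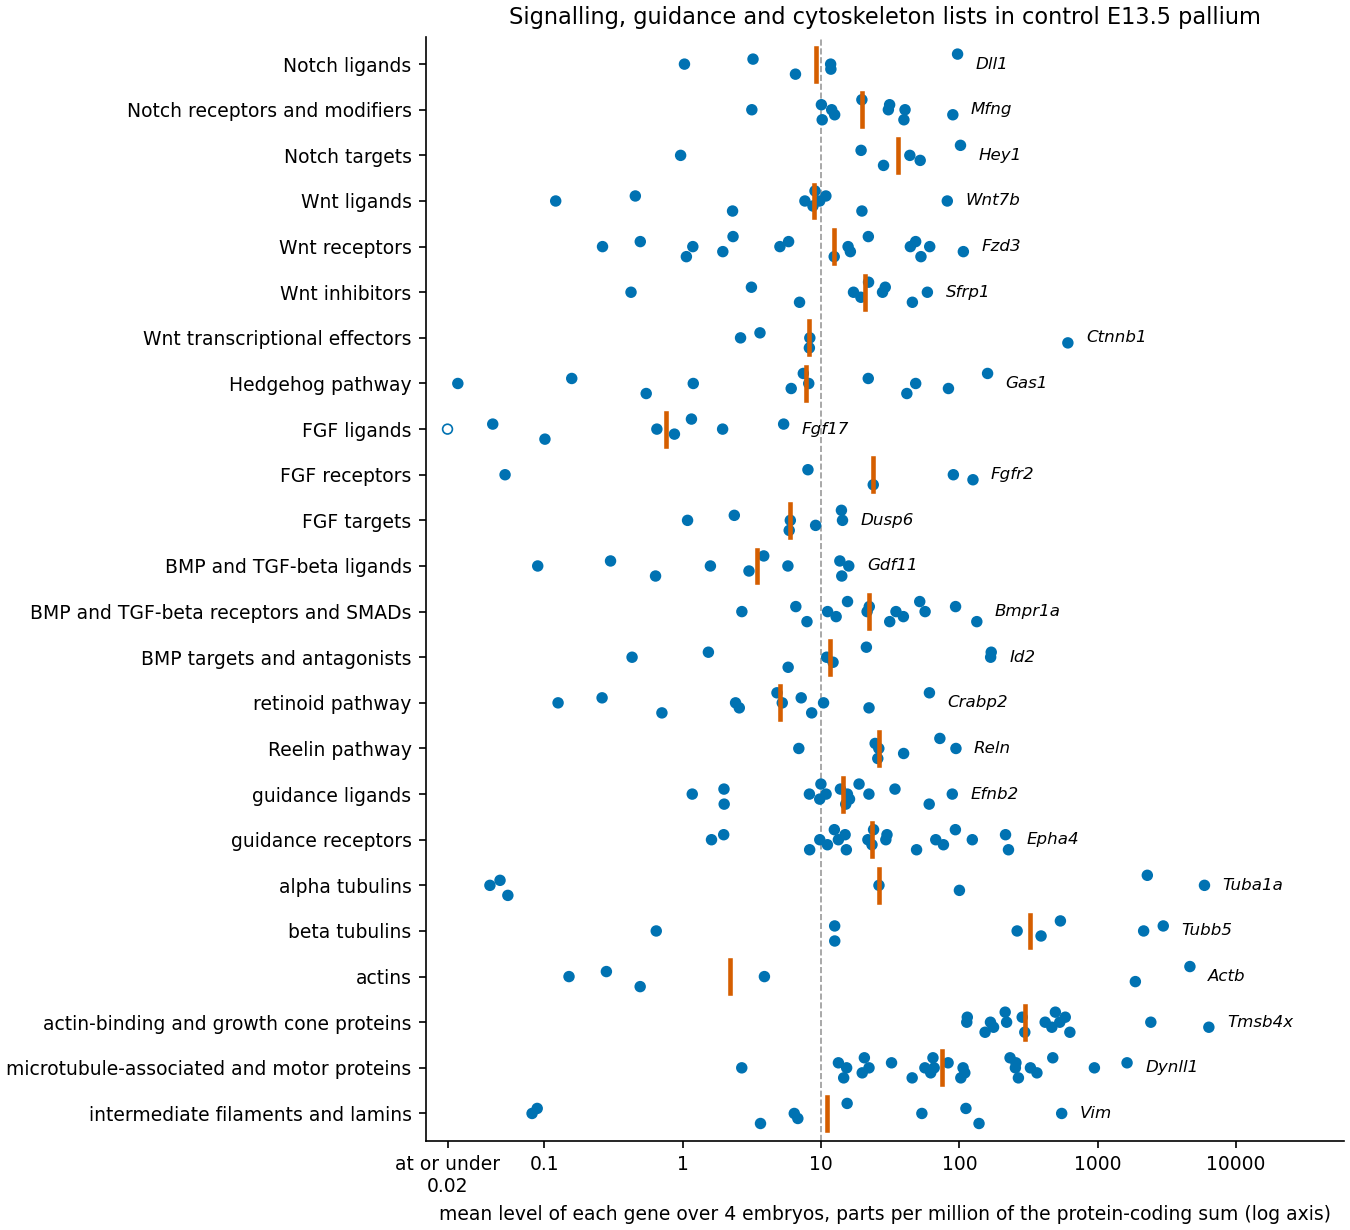
Mean control level of every gene in the signalling, guidance and cytoskeleton lists. The x axis is the mean over 4 embryos in ppm on a log scale; each point is a gene, the open point is listed at 0, orange bars are list medians and the dashed line marks 10 ppm. Ligand lists have lower medians than their receptor lists, and all 17 actin-binding genes exceed 100 ppm.

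The 4 embryos gave similar profiles. Over the 8591 genes at or above 10 ppm, the median CV was 10.4%, with quartiles of 7.19% and 14.9%, and it was 12.6% for genes of 10 to 30 ppm, 9.58% for 30 to 100 ppm, 8.56% for 100 to 1000 ppm and 9.70% above that. Spearman correlations of levels between pairs of embryos, across these genes of 1 tissue, were 0.964 to 0.983, the lowest being those of embryo 1 with embryos 2 and 3. Without embryo 1 the median CV was 8.69%. In the cKO and dKO libraries the same genes had median CVs of 8.72% and 12.9%.

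Of 3306 genes at or above 50 ppm, 18 had a CV above 50% and 459 a CV under 5%. The steadiest were Aif1l at 50.5, 50.9, 50.7 and 50.7 ppm, the chromatin protein gene Phf6 at 72.4, 71.8, 72.4 and 71.3 ppm and Ran, the GTPase of nuclear transport, at 358, 356, 362 and 356 ppm. Next came the splicing factor gene Sf3a3, the respiratory chain gene Ndufa8, Ing4, the apoptosis gene Bax (186, 184, 185 and 189 ppm), the cell cycle gene Cks1b, the proteasome gene Psmc1 and Isca1, each with a CV under 1.30%. At the other end stood multi-copy or processed copies of genes: Hist2h2aa1 (1107, 45.2, 94.5 and 76.1 ppm), Hist2h3b (238, 5.78, 3.48 and 49.03 ppm) and the ribosomal protein copy Rpl10-ps3 (927, 107, 88.02 and 102 ppm). Embryo 1 set the high value in all 3, and without it their means were 71.95, 19.4 and 98.8 ppm. Below 50 ppm, single-copy genes were also very uneven. The albumin gene Alb (mean 22.2 ppm) had a CV of 197%. The apolipoprotein genes Apoa2 (12.4 ppm) and Apoc1 (25.6 ppm) had CVs of 182% and 174%. The source of this RNA was not tested.

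Hist1h2ao, Hist1h2af and Hist1h2ai were highest in embryo 1 (522, 137, 160.1 and 133 ppm for Hist1h2ao), as were the zeta globin gene Hba-x (375, 122, 133 and 173 ppm), the ribosomal protein gene Rps16 (1212, 836, 169 and 276 ppm) and Lars2 (3048, 1437, 1111 and 806 ppm), the mitochondrial leucyl-tRNA synthetase gene. The predicted genes Gm10800 (851, 2146, 260.5 and 789 ppm), Gm10801 and Gm21738 were highest in embryo 2 and lowest in embryo 3. Zfp969 (43.3, 80.5, 93.8 and 13.3 ppm) and the predicted gene Gm2174 (18.02, 93.4, 0 and 128 ppm) were lowest in embryos 4 and 3. Without the embryo that set the highest value, the means were 143 ppm for Hist1h2ao, 633 ppm for Gm10800, 132 ppm for Gm10801 and 37.1 ppm for Gm2174. Reads of multi-copy genes can be shared with near-identical sequence elsewhere, and how they were assigned is not given in the sources used here.

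Deviations of an embryo from the mean of the 4 were correlated with the GC content of the transcripts. Across 8585 genes, which are not independent replicates, the Spearman correlation of the log2 deviation with transcript GC was 0.476 in embryo 1, -0.492 in embryo 2, -0.288 in embryo 3 and 0.276 in embryo 4. In the fifth of genes with the highest GC (above 55.4%), the median deviation was 0.14 in embryo 1, -0.13 in embryo 2, -0.09 in embryo 3 and 0.08 in embryo 4 on the log2 scale. In the fifth with the lowest GC it was -0.11, 0.09, 0.02 and -0.01. Embryos 1 and 2 deviated in opposite directions at both ends of the GC range. How far GC content enters the differences between embryos given above for single genes and lists was not tested. The median absolute deviation over all these genes was 0.12 in embryo 1 and 0.08 in embryo 4.

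**Figure D5:**
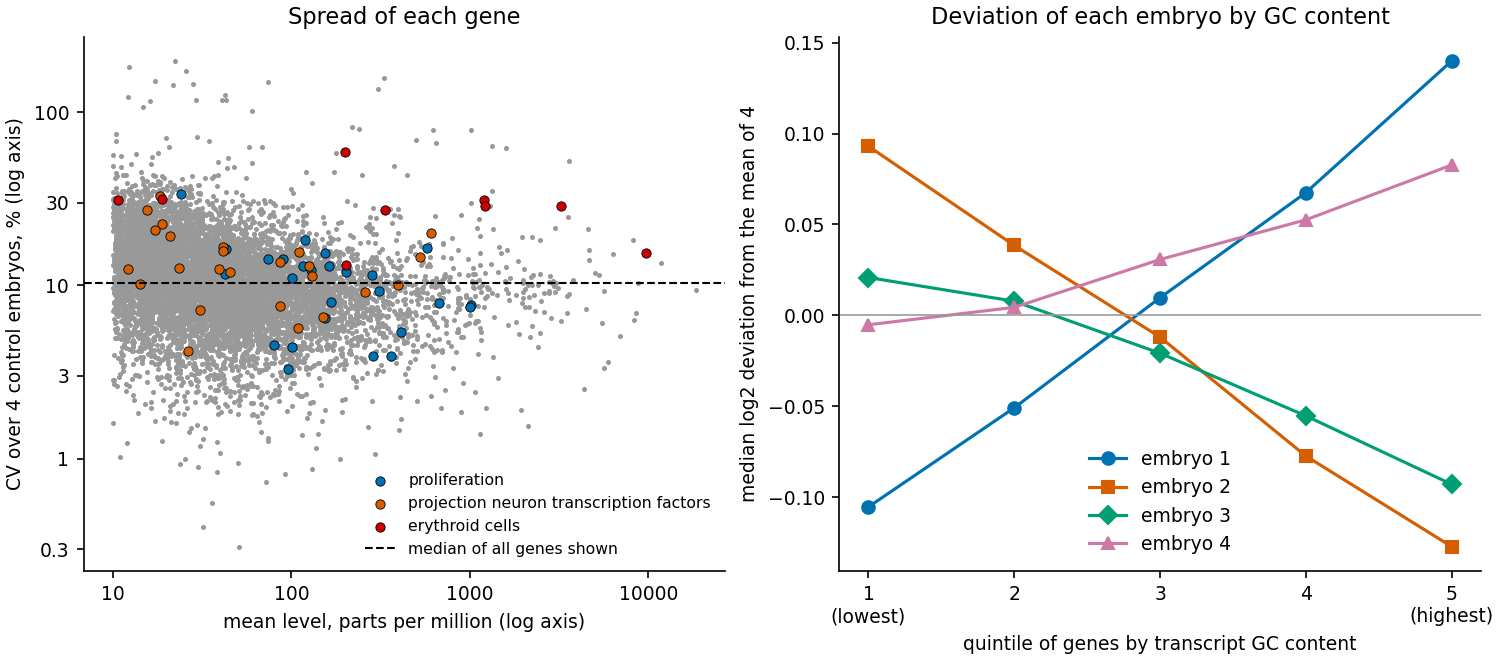
Spread between the 4 control embryos. Left, the CV of each of 8591 genes against its mean level, both on log axes, with 3 gene lists coloured and the median of 10.4% dashed. Right, the median log2 deviation of each embryo from the mean of the 4 in 5 bins of genes by transcript GC content, which rises with GC in embryos 1 and 4 and falls in embryos 2 and 3.

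To see which parts of the profile moved with the mutations, each mutant was compared with the same 4 controls by limma on log2(ppm + 1), in 1 fit of 12 libraries over 12497 genes with a mean of at least 5 ppm, and a gene was called where its p, adjusted by Benjamini-Hochberg over all of these genes, was under 0.05. In cKO, 11.3% of all tested genes were called higher and 1.61% lower. Of the 358 listed genes tested, 68 (18.99%) were higher and 11 (3.07%) lower in cKO, with a median log2 difference of 0.18 against 0.15 over all genes. In dKO, 5.64% of all genes were called higher and 4.01% lower, and of the same listed genes 19 were higher and 16 lower, with a median of 0.05 against 0.04. Both contrasts share the control embryos, and the listed genes were chosen with results of these data known. Sex was not in the fit, and the groups differed in it. In cKO only embryo 3 had more than traces of Ddx3y (90.2 ppm), and its Xist level was 0.315 ppm. In dKO only embryo 3 had high Xist (264 ppm), and its Ddx3y was listed at 0. The part of sex in the calls was not tested. The split between higher and lower calls rested on the scale: of all called genes in cKO 87.5% were higher on this scale, 96.9% on the TPM scale and 56.6% after median-shift centring, with median log2 differences over all genes of 0.15, 0.25 and -0.01. In dKO the corresponding shares were 58.5%, 34.4% and 45.3%.

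Among the gene lists, that of microglia, a minor part of the control profile, had the largest median log2 difference in cKO, though not in dKO. In cKO 9 of the 10 tested microglia genes were called higher and none lower, with a median log2 difference of 2.01. C1qa was at 17.1, 18.1, 17.02 and 15.7 ppm in the controls and at 98.5, 98.1, 72.6 and 66.3 ppm in cKO embryos 1 to 4, and the groups did not overlap (log2 difference 2.22, SE 0.16, limma adjusted p = 6.72e-06). C1qb, Fcrls, Tyrobp and Aif1 rose by 2.04, 2.25, 2.15 and 2.07 on the same scale. In dKO 1 of the 10 was called higher, C1qa at 20.5, 22.2, 28.5 and 33.2 ppm (log2 difference 0.57, limma adjusted p = 0.0462). That count was 0 without control embryo 2, 3 or 4 or dKO embryo 3 or 4, 2 without control embryo 1 and 6 without dKO embryo 1. It was also 0 on the TPM scale, after median-shift centring or quantile normalization, and with a pseudocount of 5. With 2 groups only and with the replicate number as a block it was again 0. In cKO the count was 9 of 10 when each embryo in turn was left out, on the TPM scale and after centring or quantile normalization. The summed level of the list was 116, 117, 94.2 and 99.8 ppm in the controls and ran from 359.7 to 502 ppm in cKO and from 117 to 175 ppm in dKO.

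Vessel and pericyte genes were called higher for 11 of 15 in cKO and 4 of 15 in dKO, and none was called lower. Over all tested genes, 11.3% were called higher in cKO and 5.64% in dKO. The cKO count for vessels and pericytes was 5 after median-shift centring and 4 after quantile normalization. It was 6 without each of cKO embryo 2, cKO embryo 4 and control embryo 2, and 7 without control embryo 4. Of all 12497 tested genes, 514 were called higher in cKO after centring and 462 after quantile normalization, against 1411 as reported. The dKO count for vessels and pericytes was 0 without control embryo 3 or 4 or dKO embryo 3 or 4, 1 without control embryo 2 and 8 without dKO embryo 1. It was also 0 on the TPM scale, with 2 groups only and with the replicate number as a block. After quantile normalization it was 2, and after median-shift centring 4. Of the 12 intermediate progenitor genes, 2 were called lower in cKO (Neurog1 and Neurog2) and 3 in dKO (Eomes, Sstr2 and Rhbdl3), and none higher. Over all tested genes, 1.61% were called lower in cKO and 4.01% in dKO. In cKO 6 of the 12 were called lower after median-shift centring and 5 after quantile normalization, whereas on the TPM scale 1 was lower and 1 higher. Of all 12497 tested genes, 394 were called lower in cKO after centring and 368 after quantile normalization, against 201 as reported. For the 12 genes, the cKO count of lower calls was 1 without each of cKO embryos 1, 2 and 3 and control embryos 1, 3 and 4. Id4 was at 191, 148, 163 and 171 ppm in the controls against 83.6, 91.1, 100.05 and 103 ppm in cKO and 126, 121, 102 and 99.3 ppm in dKO, with no overlap (log2 differences -0.82 and -0.58, SE 0.11 for both, limma adjusted p = 0.000497 and 0.00608). Neurog2 was at 63.98, 59.9, 60.1 and 60.05 ppm in cKO, below every control (log2 difference -0.68, limma adjusted p = 0.00369), and at 83.2, 87.3, 72.4 and 65.4 ppm in dKO (-0.35, adjusted p = 0.0792). Gas1 (-0.75) also fell in cKO, and so did Neurog1 (-0.81, limma adjusted p = 0.0475) and Robo3 (-0.68, limma adjusted p = 0.0223). The Neurog1 call was lost without each of cKO embryos 1, 2 and 3 and control embryos 1, 3 and 4 (adjusted p = 0.0938 to 0.128). The Robo3 call was lost without each of cKO embryos 1, 2 and 3 and control embryos 1 and 4 (adjusted p = 0.0515 to 0.0641). On the TPM scale the Neurog1 and Robo3 calls were also lost (limma adjusted p = 0.0745 and 0.0541). With the replicate number as a block that of Neurog1 was lost (limma adjusted p = 0.0995).

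In dKO the named rises were Fgf17 (9.28, 19.1, 32.4 and 28.5 ppm, log2 difference 2.04), Bmp4 (15.6, 13.7, 18.5 and 17.95 ppm, 1.40), the adult globin gene Hbb-bt (1214, 1259.8, 912 and 326 ppm, 1.34), Calb2 (20.01, 34.2, 21.5 and 38.7 ppm, 1.08) and Col3a1 (127, 99.9, 180.1 and 201 ppm, 0.91). The Fgf17 and Col3a1 calls were lost without each of control embryos 2, 3 and 4 and dKO embryos 3 and 4, and for Fgf17 also dKO embryo 2 (adjusted p up to 0.0944 for Fgf17 and 0.0603 for Col3a1). The Hbb-bt call was lost without each embryo except dKO embryo 4 (adjusted p = 0.0594 to 0.107). With 2 groups only, the Fgf17, Col3a1 and Hbb-bt calls were all lost (limma adjusted p = 0.0818, 0.0800 and 0.119). On the TPM scale those of Fgf17 and Hbb-bt were lost (limma adjusted p = 0.0585 and 0.0726). The dKO and control ranges overlapped for all 3 of these genes and did not for Bmp4 and Calb2. The named falls were Epha5 (109, 139, 107 and 87.4 ppm, -0.97, limma adjusted p = 0.00262), Robo3 (-0.97), the somatostatin receptor gene Sstr2 (-0.75), Tuba4a (12.6, 15.3, 17.99 and 17.96 ppm, -0.70, limma adjusted p = 0.00243) and Neurod2 (-0.59, limma adjusted p = 0.0372), the last lost without each control embryo and without dKO embryos 3 and 4 (adjusted p = 0.0583 to 0.101). The Neurod2 call was also lost on the TPM scale, with 2 groups only and with the replicate number as a block. Every Epha5 and Tuba4a value in dKO lay below every control value. In cKO Epha5 stood at 174, 225, 206 and 162 ppm, which overlapped the controls. Whether any of these differences between cKO and dKO is itself beyond the spread was not tested.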

How the data were processed

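RNA of the dorsal telencephalon was measured in 12 libraries. Per the submitters' processing notes, HISAT2 and the mm10 build were used, and the counting tool and annotation are not given in the sources used here. The authors deposited TPM for 54735 gene symbols per library, summing to 1000000. TPM holds no depth, so no counting interval could be given. GENCODE M21 gave types and coordinates, with 54183 symbols matched, and values were rescaled to parts per 1000000 (ppm) of the nuclear protein-coding sum. Replication-dependent histones and ribosomal protein genes weigh on that sum.

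Control libraries were described without a test. For the mutants, limma 3.58.1 (R 4.3.3, trended eBayes) was fitted on log2(ppm + 1), which understates changes of low genes, to 12497 genes with a mean of at least 5 ppm in 1 fit of 3 groups. On simulated data for cKO against control, 200 of 12497 genes were changed by 1 on the log2 scale. Of the 200, 172 were recovered (86%), and 14 further calls were false. Whether the same shares hold in the deposited libraries, where the count of calls depended on the scale, was not tested. Tables were handled with Python 3.11.15 and pandas 2.3.3, and plots drawn with matplotlib 3.10.9.

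Members and lists were chosen with earlier results of these data known. Genes named were the 25 highest genes, the 25 highest transcription factors, the 4 highest of each of 41 lists and members at 0, the 15 highest and 10 lowest CVs at 50 ppm or more, Rnu11 and Trp53, and the 5 largest rises and falls per contrast among called listed genes. Other named genes were chosen after their values were seen, and some genes that the rule names are not reported here. Alternatives were TPM as deposited, centring, quantile normalization, a pseudocount of 5, other filters, 2 groups only, a replicate block, other gene types and leaving out each library.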

Additional observations from a re-analysis of the deposited data

Results flagged for a closer look

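The gap between an extreme library and its nearest neighbour was taken as a share of the whole range. In 16 of 290 groups of 4 libraries (5.52%), it exceeded Dixon's 95% critical value. Chance gives this in about 1 of 20 unselected groups. Some of the genes were named for a high or low CV between the same control embryos, and the list sums hold named genes. The counts here, in total and per embryo, can therefore not be set against that rate. Control embryo 1 was the extreme in 12 of the 16, and the highest in 11 of these 12.

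Control embryo 1 was the highest in each of the next 6 values. GC-rich transcripts also ran high in this embryo (Spearman correlation of deviation with transcript GC 0.476). The part of GC content in these values was not tested. The gap was 0.848 of the range for the proneural gene Neurog2, at 125 ppm against 87.97 to 93.5 ppm in the other embryos. It was 0.957 for the Wnt antagonist gene Sfrp1 (74.1 against 53.2 to 54.1 ppm), 0.888 for Fgf18 (3.37 against 1.38 to 1.60 ppm) and 0.852 for the summed FGF ligands (21.4 against 5.24 to 7.63 ppm). Among FGF targets it was 0.841 for Etv5 (18.4 against 12.3 to 13.2 ppm) and 0.8702 for Spry2 (11.9 against 7.89 to 8.42 ppm). The microglial receptor gene P2ry12 was lowest in embryo 1, at 7.87 ppm against 10.3 to 10.7 ppm, with a gap of 0.864.

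Multi-copy genes and Myh3 formed the rest of the control embryo 1 group. Gaps were 0.954 for Hist2h2aa1, 0.931 for Hist1h2ao, 0.935 for Hist1h2af and 0.978 for Rpl10-ps3, and the muscle myosin gene Myh3 had 0.965 at levels under 1 ppm. Embryo 2 stood apart in the ribosomal protein copy Rps27rt, at 6384 ppm against 2518 to 2709.8 ppm (gap 0.9504), and embryo 3 in the keratin gene Krt5 (gap 0.848, all values under 1 ppm).

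Among mutants, cKO embryo 1 was the highest in Neurog2, at 63.98 ppm against 59.9 to 60.1 ppm (gap 0.948), and dKO embryo 2 was the highest in Robo3, at 7.58 ppm against 5.15 to 5.53 ppm (gap 0.843).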

How the results depend on the processing

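The protein-coding share was 13.3% with RefSeq gene types in place of 15.6%, and 15.3% to 15.9% when single embryos were left out. The median CV was 8.81% over genes of at least 50 ppm and 8.69% to 10.9% when single embryos were left out, the lowest without embryo 1. Genes at or above 10 ppm numbered 8498 to 8681 without single embryos, 8028 when every embryo had to reach 10 ppm and 9196 with histone and ribosomal protein genes left out of the sum. With the median in place of the mean, 225 of 230 named genes stayed within the spread in rank, and the largest shift was 2961 ranks (Hist2h3b, from 2303 to 5264). With mitochondrially encoded genes included 211 did so. The means of 18 named genes moved by over 1.5 times when 1 embryo was left out, up to 5.67 times for Krt5.

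Counts of called genes depended on the setting. In cKO they were 1612 as reported, 4163 on the TPM scale, 908 with median-shift centring, 830 with quantile normalization and 896 at a minimum mean of 20. Leaving out single embryos gave 782 to 1396, with 839 without cKO embryo 1, 782 without cKO embryo 2, 1025 without cKO embryo 3 and 857 without control embryo 3. In dKO they were 1206 as reported, 610 on the TPM scale, 778 at a minimum mean of 20 and 592 with 2 groups only. Leaving out single embryos gave 690 to 1436, with 745, 736 and 690 without control embryos 2, 3 and 4 and 786 without dKO embryo 3. Fits without an embryo had fewer samples, and fewer genes were tested at a minimum mean of 20. The cause of the differences between these counts was not tested. Of the named changes under the alternatives, 262 kept their direction and side of the threshold, 51 lost the call and 0 reversed.

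Replicate numbers did not pair the samples: same-numbered libraries had correlations of their deviations between -0.0972 and 0.0505, and only number 4 of cKO matched its own number best. With the replicate number as a block, the counts were 1060 in cKO and 744 in dKO. Depth is unknown from TPM, so genes listed at 0 have no stated upper limit.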

Other observations

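The following genes of high level in the controls belong to none of the described classes and lists, and were named after their values were seen. Hsp90aa1 and Hsp90ab1, chaperone genes, stood at 2803 ± 318 and 1984 ± 182 ppm, and Hspa8, a further chaperone gene, at 1579.6 ± 167 ppm. Npm1, which encodes a nucleolar protein of ribosome assembly, stood at 2604 ± 183 ppm, Ftl1, the ferritin light chain gene, at 2601 ± 236 ppm, and Calm2, a calmodulin gene, at 2019.8 ± 250.3 ppm. The RNA-binding protein genes Ybx1 (1946 ± 37.1 ppm), Ddx5 (1233 ± 24.3 ppm) and Caprin1 (1062 ± 25.8 ppm) each had a CV under 3%. Replacement histone genes, whose expression is not confined to S phase, were among them, with H3f3a at 2789.8 ± 293 ppm and H3f3b at 1136 ± 15.7 ppm. The chromatin protein genes Hmgn2 and Hmgb1 stood at 1455 ± 244 and 1211 ± 102 ppm, and Ptma, the prothymosin gene, at 1875 ± 98.4 ppm.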
